A study of Homo sapiens with 6 samples.

Results

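Of the J-domain cochaperones outside the endoplasmic reticulum (ER), 9 were followed at the RNA level in OVCAR5 cells during exposure to SpiD7. OVCAR5 is an established human ovarian cancer cell line, and SpiD7 is a dimer of a spirocyclic compound. Other J-domain genes outside the ER, of the mitochondria and of other places including the cytosol, form separate lists further on. The 9 genes were taken by symbol and were DNAJA1, DNAJA2, DNAJA4, DNAJB1, DNAJB2, DNAJB4, DNAJB5, DNAJB6 and DNAJC7. They are 9 of the 29982 gene symbols in the expression table. All 9 were among the 13287 genes with a mean level of at least 1 FPKM (reads scaled to transcript length and to the mapped reads of the library) over the libraries, and these 13287 genes are the background for every count given. The RNA-seq libraries numbered 6. Cells with the DMSO vehicle gave 2 libraries, and the sample labels give no duration of exposure for them, although the study's captions name the vehicle by time point. Cells with 10 μM SpiD7 gave 2 libraries at 2 h, 1 library at 6 h and 1 library at 12 h, so the values at 6 h and at 12 h have no replicate of their own. The same 2 DMSO libraries were the reference at every time. With no duration known for them, time in culture cannot be told apart from exposure to SpiD7. The labels do not say whether libraries of the same group came from separate cultures. At 2 h, p-values measure only the spread between these libraries. In the fit over the order of time, they also take in how far the groups depart from a straight line.

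J-domain proteins, also called the HSP40 family, bind unfolded polypeptides and hand them to HSP70, and their J domain makes HSP70 hydrolyse ATP and close on the client. Class A members carry a J domain, a glycine-rich stretch and a zinc-finger region, class B members lack the zinc finger, and class C members share little but the J domain. Several of the cytosolic genes are textbook targets of HSF1, the transcription factor of the heat shock response, which binds inverted repeats of a short block known as the heat shock element.

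The sequence around the start sites was examined first for such blocks, and their part in the RNA levels was not tested. RefSeq (GRCh38.p14) gave 15 windows for the 9 genes, each from 250 bases before to 50 bases after an annotated transcription start. Pairs of blocks were searched as GAANNTTC and as TTCNNGAA, each of which reads the same on both strands, and runs of 3 blocks as GAANNTTCNNGAA and its reverse complement TTCNNGAANNTTC, which contain the pairs. Of 35116 windows of all genes, 13.5% held a pair in either orientation and 0.49% held a run of 3. By gene, a pair was present in at least 1 window of 16.2% of the 27305 genes with a window, and a run of 3 in 0.608%. A pair was present for 5 of the 9 genes, namely DNAJA1, DNAJA4, DNAJB1, DNAJB4 and DNAJB6, and a run of 3 for DNAJA1 and DNAJB6. The stretches that hold them are shown for comparison, 5′ to 3′ on the strand of the gene, with the searched blocks in capitals. The DNAJB1 stretch is chr19:14518417-14518497 on the minus strand, the DNAJA4 stretch is chr15:78264452-78264532, the DNAJA1 stretch is chr9:33025243-33025292, the DNAJB6 stretch is chr7:157336854-157336914 and the DNAJB4 stretch is chr1:78004819-78004869, the last 4 on the plus strand.
DNAJB1: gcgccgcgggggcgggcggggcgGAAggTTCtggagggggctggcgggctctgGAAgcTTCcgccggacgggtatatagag
DNAJA4: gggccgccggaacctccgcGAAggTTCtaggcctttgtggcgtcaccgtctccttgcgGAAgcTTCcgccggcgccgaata
DNAJA1: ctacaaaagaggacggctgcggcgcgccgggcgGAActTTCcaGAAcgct
DNAJB6: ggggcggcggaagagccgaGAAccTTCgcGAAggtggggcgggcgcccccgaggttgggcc
DNAJB4: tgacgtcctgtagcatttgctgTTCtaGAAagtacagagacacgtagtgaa

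The DNAJB1 and DNAJA4 stretches each held 2 pairs, and the inner bases of the upstream pair and of the downstream pair were the same in both genes. Counted from the start site, with the base before it as -1, the DNAJB1 pairs began at -77 and -47 (start at position 14518397) and those of DNAJA4 at -91 and -52 (start at position 78264562). DNAJB1 had 1 more pair, beginning at base 2 of the transcript from a start site at position 14517937. In DNAJA1 the run of 3 began at base 4 of the transcript and a further pair began at -198, while in DNAJB6 the run of 3 began at -131. The pair of DNAJB4 began at -98 from the start at position 78004939, and the window of its other start site held none. DNAJA2, DNAJB2, DNAJB5 and DNAJC7 had no match, which says only that these letters are not in their windows.

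**Figure D1:**
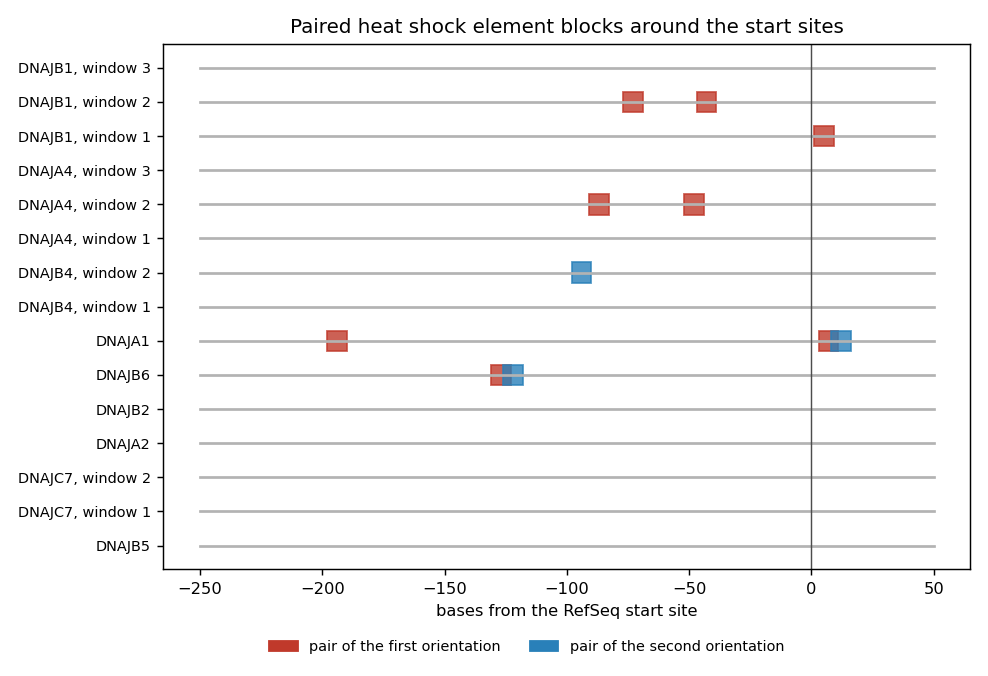
Position of paired blocks in the 15 RefSeq windows of the 9 genes, numbered by position along the chromosome where a gene has several. The horizontal axis gives bases from the annotated start site, grey lines are the windows from 250 bases before to 50 bases after it, and coloured boxes are pairs (red for GAANNTTC, blue for TTCNNGAA; adjoining red and blue boxes form a run of 3). Genes run from the highest difference from DMSO at 12 h at the top to the lowest at the bottom, and 6 of the 15 windows hold a pair.

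The second library of DMSO and of SpiD7 2 h was not read from a column of its own. The columns named for it behaved as means that contain the first library, and the second was recovered by subtraction, which rests on the values alone and assumes equal weights. The recovered libraries stood apart from the others, with MIR6723 taking 25.0% and 21.8% of the summed FPKM against 6.93% to 9.19% in the first libraries of DMSO and 2 h and in the 12 h library, and PECAM1, an endothelial marker, was at 10.7 and 7.74 FPKM there and between 0.320 and 0.961 FPKM in the other 4. PTPRC, the pan-leukocyte marker, was at or below 0.0317 FPKM in all libraries, and the epithelial genes EPCAM, KRT8, KRT18, KRT19 and CDH1 were present in all, with EPCAM at 77.4 to 86.5 FPKM. Between the 2 DMSO libraries, 1792 of the 13287 genes (13.5%) differed by more than 2-fold, and DNAJB4 was 1 of them. The number of reads in each library cannot be read from FPKM, and the study's methods give only an approximate range for all samples. From the FPKM that 1 read is worth, the depth of the other libraries relative to the first DMSO library was 0.769 to 1.11.

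DNAJB1, DNAJA4, DNAJB4 and DNAJA1 had higher RNA levels with SpiD7 at all 3 times. None of the 9 genes was more than 2-fold below the mean of DMSO at any time, as 0.662%, 3.1% and 3.76% of all genes were at 2 h, 6 h and 12 h. With only 9 genes, a count of 0 cannot show a difference from these shares. These shares rest on which libraries are used: the 88 lower genes at 2 h numbered 134 to 388 with 1 of the 4 libraries left out, the 412 at 6 h numbered 1032 without DMSO replicate 1 and 132 without DMSO replicate 2, and the 499 at 12 h numbered 1005 and 536, with 0 of the 9 genes among them each time. At 12 h the 4 genes were 13.0-fold, 7.19-fold, 3.31-fold and 2.89-fold above the mean of the DMSO libraries, on the log2(FPKM + 0.1) scale used for every difference here. DNAJB6 and DNAJB2 were 1.82-fold and 1.73-fold above DMSO, and DNAJA2, DNAJC7 and DNAJB5 were at 1.35, 1.23 and 0.951 times its level. The differences at 12 h, from 1 library, were not tested on their own, and none of the 9 genes passed limma's adjusted test at 2 h or over the order of time. FPKM is a level relative to the rest of the library, so an altered amount of total RNA per cell cannot be told apart from it.

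DNAJB1 (chr19:14514770-14529770, GRCh38, minus strand) encodes the canonical stress-inducible class B cochaperone, which works with HSP70 in refolding and, with an HSP110 partner, in taking aggregates apart. Its level was 106 and 127 FPKM with DMSO, 520 and 621 FPKM after 2 h, 1414 FPKM after 6 h and 1513 FPKM after 12 h. Every SpiD7 library was above both DMSO libraries, both 2 h libraries were below the 6 h and 12 h libraries, and the libraries within a group lay close together. The log2 difference from DMSO was 2.29 at 2 h, then 3.61 and 3.70 at 6 h and 12 h. Against either DMSO library alone it was 3.48 to 3.74 at 6 h and 3.57 to 3.83 at 12 h, so the step of 0.10 from 6 h to 12 h was smaller than the difference of 0.26 between the DMSO libraries. Ranked by the difference, DNAJB1 stood at places 90, 92 and 97 of the 13287 genes at the successive times.

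DNAJA4 (chr15:78264086-78282196, plus strand) encodes a class A cochaperone whose gene is known to respond to heat. Its level was 20.6 and 13.7 FPKM with DMSO, 44.5 and 74.4 FPKM after 2 h, 97.1 FPKM after 6 h and 122 FPKM after 12 h. Levels went up with each later time, with no overlap between DMSO and any SpiD7 library, although the 2 h libraries were 0.74 apart on the log2 scale. The log2 difference from DMSO was 1.77 at 2 h, then 2.52 and 2.85 at 6 h and 12 h. The 12 h value lay between 2.55 and 3.14 against the separate DMSO libraries.

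DNAJB4 (chr1:77979175-78017964, plus strand) encodes a class B protein close in sequence to DNAJB1 and abundant in muscle. Its level was 8.07 and 16.7 FPKM with DMSO, 38.6 and 75.8 FPKM after 2 h, 45.6 FPKM after 6 h and 38.7 FPKM after 12 h. All SpiD7 libraries were above both DMSO libraries, and unlike in DNAJB1 the mean was highest at 2 h. In each replicated group the recovered library was the higher, by 1.04 on the log2 scale for DMSO and by 0.97 at 2 h. The log2 difference from DMSO was 2.21 at 2 h, then 1.96 and 1.73 at 6 h and 12 h. The later values lay within the range of the 2 h libraries, so a fall after 2 h was not larger than the spread between libraries. PECAM1 was also higher in the recovered libraries, and its part in the level of DNAJB4 was not tested.

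DNAJA1 (chr9:33025211-33039907, plus strand) encodes the main constitutive class A cochaperone of the cytosol. Its level was 434 and 291 FPKM with DMSO, 654 and 596 FPKM after 2 h, 1029 FPKM after 6 h and 1027 FPKM after 12 h. DMSO was lowest, 2 h was in between, and the 6 h and 12 h libraries were at nearly the same level. The log2 difference from DMSO was 0.81 at 2 h and 1.53 at both later times. The DMSO libraries differed by 0.58, so the value at 12 h lay between 1.24 and 1.82 when each was used alone.

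**Figure D2:**
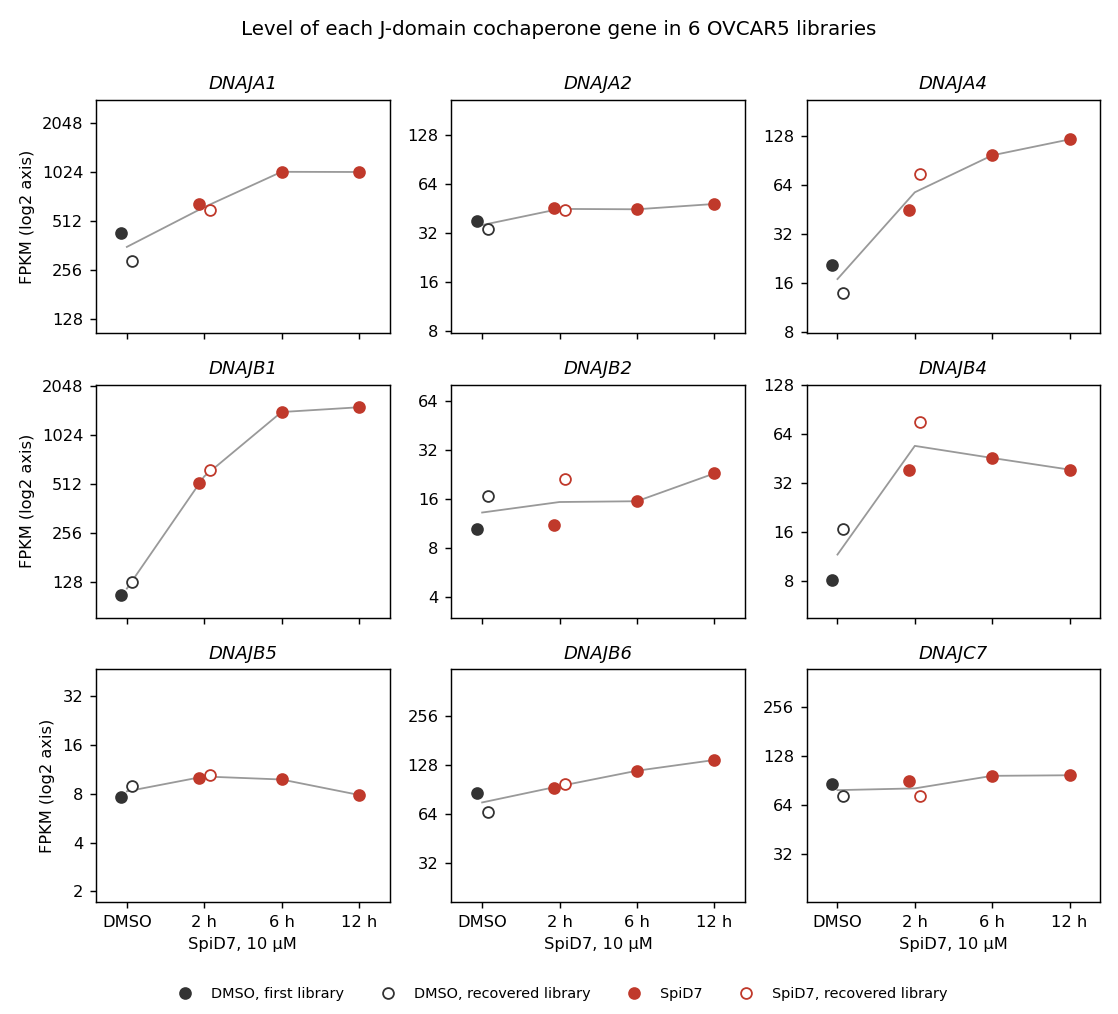
FPKM of each gene in the 6 libraries, on log2 axes that span the same ratio in every panel. Black points are DMSO and red points SpiD7 libraries, open points are the libraries recovered by subtraction, and the grey line joins the mean of each group. DNAJB1 goes from 106 and 127 FPKM with DMSO to 1513 FPKM at 12 h, while DNAJB5 stays between 7.64 and 10.4 FPKM.

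DNAJB6 and DNAJB2 encode class B proteins known for holding aggregation-prone proteins in solution. DNAJB6 (chr7:157335381-157417439, plus strand) was at 86.2 and 66.5 FPKM with DMSO, 92.8 and 98.1 FPKM after 2 h, 119 FPKM after 6 h and 138 FPKM after 12 h. Levels were higher at each later time without overlap with DMSO, although the first DMSO library and the lower 2 h library were only 0.11 apart on the log2 scale. The log2 difference was 0.33, 0.65 and 0.87 at 2 h, 6 h and 12 h. DNAJB2 (chr2:219279267-219286900, plus strand), best known from neurons, was at 10.5 and 16.6 FPKM with DMSO, 11.1 and 21.1 FPKM after 2 h, 15.5 FPKM after 6 h and 23.0 FPKM after 12 h. The DMSO and 2 h libraries overlapped, the 6 h library lay between the DMSO libraries, and the recovered 2 h library and the 12 h library were above both. Its log2 difference at 12 h was 0.79, between 0.46 and 1.12 against the separate DMSO libraries.

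DNAJA2, DNAJC7 and DNAJB5 had the smallest differences at 12 h. DNAJA2 (chr16:46955362-46973788, minus strand), a constitutive class A cochaperone active in refolding, was at 37.6 and 33.8 FPKM with DMSO, 45.4 and 44.2 FPKM after 2 h, 44.5 FPKM after 6 h and 48.0 FPKM after 12 h. All 4 SpiD7 libraries were above both DMSO libraries, with a log2 difference of 0.33, 0.32 and 0.43 at 2 h, 6 h and 12 h. DNAJC7 (chr17:41976433-42021376, minus strand), whose tetratricopeptide repeats bind HSP70 and HSP90, was at 86.6 and 72.6 FPKM with DMSO, 90.8 and 72.7 FPKM after 2 h, 97.1 FPKM after 6 h and 97.9 FPKM after 12 h. The 2 h libraries overlapped the DMSO libraries, and the log2 difference at 12 h was 0.30. DNAJB5 (chr9:34989641-34998900, plus strand), a class B protein linked to nuclear traffic in muscle, was at 7.64 and 8.92 FPKM with DMSO, 9.95 and 10.4 FPKM after 2 h, 9.76 FPKM after 6 h and 7.85 FPKM after 12 h. The 2 h and 6 h libraries were above both DMSO libraries and the 12 h library lay between them. The log2 difference of DNAJB5 was 0.30 at 2 h and -0.07 at 12 h.

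**Figure D3:**
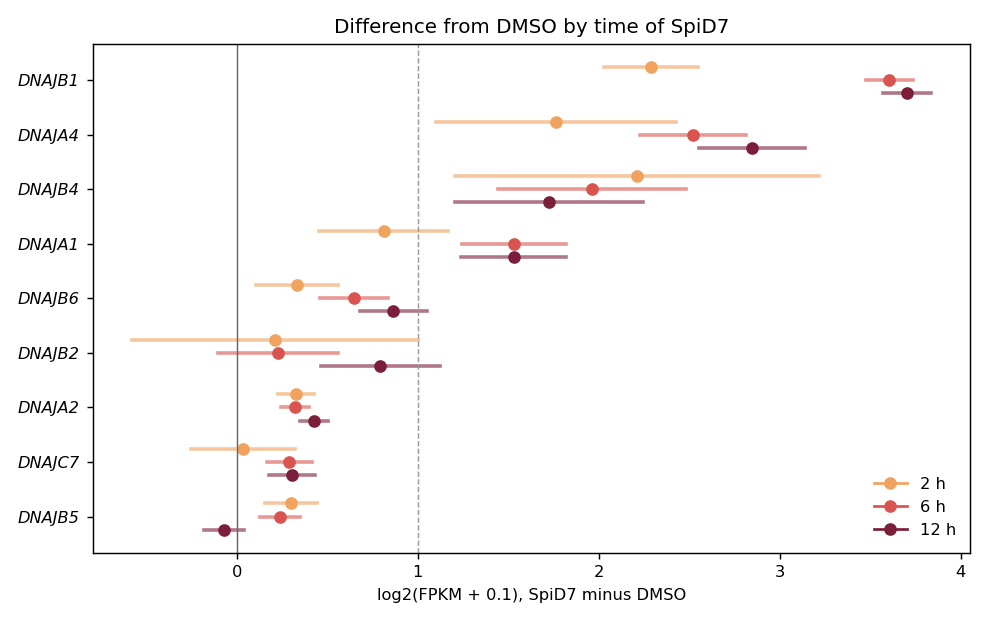
Difference of each gene from DMSO at 2 h, 6 h and 12 h, as log2(FPKM + 0.1). Points are the difference of means, and bars run from the lowest to the highest difference between any SpiD7 library of that time and either DMSO library, so the bars of 2 h rest on 4 library pairs and the others on 2. The dashed line marks a 2-fold difference. The bars of DNAJB1, DNAJA4 and DNAJB4 lie wholly beyond it at all times and those of DNAJA1 at 6 h and 12 h.

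At 2 h, the only time with replicates, limma with Benjamini-Hochberg adjustment over 13287 genes called 0 of the 9 genes at an adjusted p under 0.05. Over all genes it called 3 (0.0226%), the small RNAs MIR1260B, SNORA18 and SNORA32, all of them lower, and none that was higher. Their log2 differences were -13.64, -8.194 and -9.225. Differences of this size can come from an exact 0, which can be a failed estimate, and this was not tested. At an unadjusted limma p under 0.05, 4 of the 9 genes were higher (DNAJA1, DNAJA4, DNAJB1 and DNAJB4), beside 2.52% of all genes. That count was 2 without DMSO replicate 2, 1 without SpiD7 2 h replicate 2, and 3 without either of the first libraries. DNAJB1 had the smallest p of the 9, with a log2 difference of 2.29 (SE 0.21, 95% interval 1.68 to 2.90, limma adjusted p = 0.639, higher in 2 of 2 libraries), and the limma adjusted p of the other 8 was 1. The interval of DNAJC7 ran from -0.60 to 0.68, that of DNAJB2 from -1.13 to 1.56 and that of DNAJA2 from -0.15 to 0.81, so neither the absence nor the direction of a difference was shown for these genes.

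A trend over the order of time was fitted over all 6 libraries, with DMSO coded 0, 2 h coded 1, 6 h coded 2 and 12 h coded 3. The SE of a slope thus holds the spread between libraries and any departure from a straight line over these codes. Because DMSO is coded 0, a slope also takes in the step from DMSO to SpiD7 and does not measure duration alone. limma called 0 of the 9 genes and 2 of all genes (0.0151%), CLU and RN7SK, both with a positive slope. At an unadjusted limma p under 0.05, DNAJA1, DNAJA4, DNAJB1 and DNAJB6 had a positive slope, 4 of 9 beside 8.38% of all genes. The slope of DNAJB1 was 1.32 log2 units per step (SE 0.22, limma adjusted p = 0.137). DNAJA4 had 0.98 (SE 0.19, limma adjusted p = 0.14), DNAJA1 0.56 (SE 0.11, limma adjusted p = 0.14) and DNAJB6 0.29 (SE 0.07, limma adjusted p = 0.16). DNAJB4, with its highest mean at 2 h, had a slope of 0.59 with an SE of 0.33 (limma adjusted p = 0.455). Its slope was 1.16 without the 12 h library. The 2 genes called over all genes became 0 with any 1 of the 6 libraries left out.

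Counts by size carry no test. The 9 genes were chosen with earlier results of these data known, so the counts are not independent of those results. Each 2 h library was over 2-fold above each DMSO library for DNAJA4, DNAJB1 and DNAJB4, 3 of 9, as it was for 0.587% of all genes. At 6 h and at 12 h, DNAJA1, DNAJA4, DNAJB1 and DNAJB4 were over 2-fold above each DMSO library, 4 of 9 both times, beside 3.21% and 3.88% of all genes. Against the mean of the DMSO libraries the same genes passed 2-fold, 3 of 9 at 2 h and 4 of 9 at each later time, beside 2.32%, 5.66% and 6.48% of all genes. The 308 higher genes behind the share at 2 h numbered 743 without DMSO replicate 2 and 586 without SpiD7 2 h replicate 1, of which 3 were members in both cases. At 2 h, 7 of 9 had both libraries above both DMSO libraries (13.7% of all genes), at 6 h 8 of 9 were above (31.6%), and at 12 h 8 of 9 (30.1%). In 6 of 9, all 4 SpiD7 libraries were above both DMSO libraries (8.93% of all genes), and these were DNAJA1, DNAJA2, DNAJA4, DNAJB1, DNAJB4 and DNAJB6. None of the 9 lay below both DMSO libraries at any time, while 8.1%, 29.2% and 35.6% of all genes did at the 3 times in turn and 5.04% in all 4 SpiD7 libraries. With only 9 genes, a count of 0 cannot show a difference from shares as small as 8.1% and 5.04%. The means went up without exception from DMSO to 2 h, 6 h and 12 h in 5 genes, DNAJA4, DNAJB1, DNAJB2, DNAJB6 and DNAJC7, and in 8.78% of all genes. The median log2 difference of the 9 was 0.33, 0.65 and 0.87 at the 3 times, beside -0.01, 0.03 and -0.05 over all genes.

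**Figure D4:**
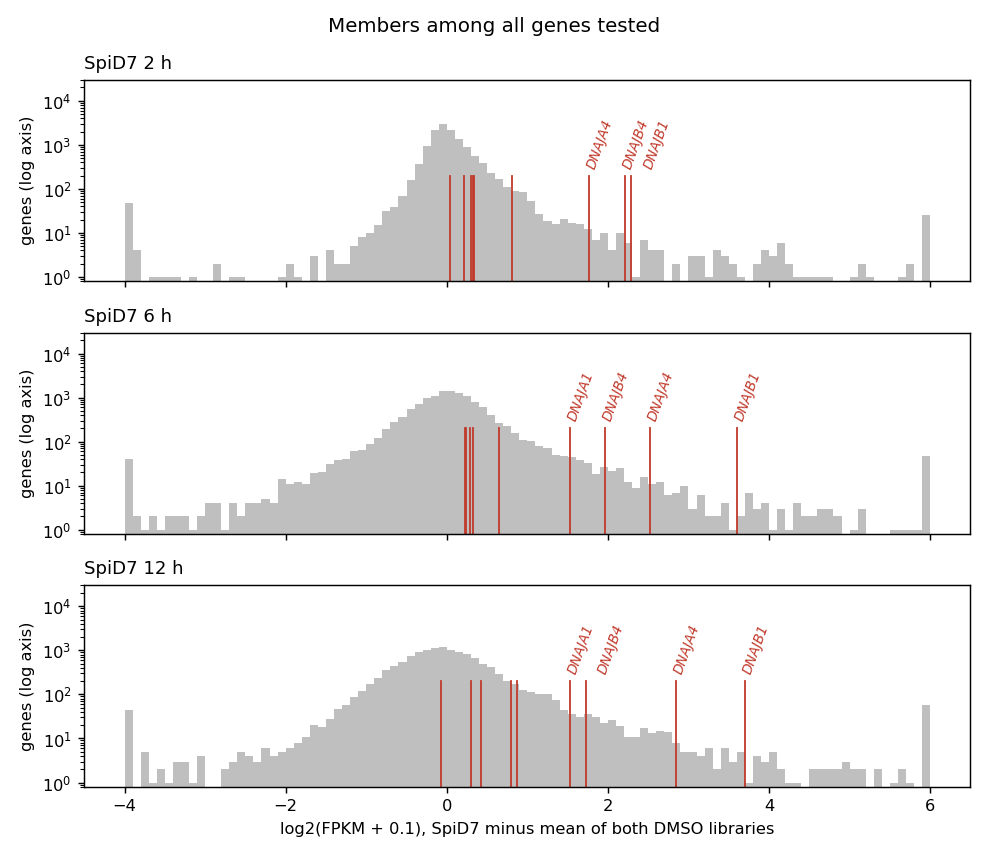
Distribution of the log2 difference from the mean of the DMSO libraries over 13287 genes (grey, log count axis) at 2 h, 6 h and 12 h, with the 9 genes as red lines. The end bins hold all genes beyond the axis, and genes over 2-fold higher are named. At 12 h, 4 lines lie beyond a log2 difference of 1 and 1 line, DNAJB5, lies at -0.07.

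The order of the genes by level was not the same in all libraries. FPKM is scaled to transcript length, so levels of different genes can be set side by side. DNAJA1 was first with DMSO and in the first 2 h library, and DNAJB1 was first in the recovered 2 h library and at 6 h and 12 h. With DMSO, DNAJA1 and DNAJB1 stood above the other 7 without overlap, DNAJC7 and DNAJB6 overlapped each other, DNAJA2 followed alone, DNAJA4, DNAJB2 and DNAJB4 overlapped, and the lower value of DNAJB4 lay within the range of DNAJB5. DNAJB5 was last in all 6 libraries. The summed level of the 9 genes was 798 and 647 FPKM with DMSO, 1507 and 1614 FPKM after 2 h, 2872 FPKM after 6 h and 3015 FPKM after 12 h. The sum of every SpiD7 library was thus above that of both DMSO libraries. DNAJB1 made up 13.3% and 19.6% of that sum with DMSO, 34.5% and 38.5% after 2 h, 49.2% after 6 h and 50.2% after 12 h. DNAJA1 made up 54.5% and 45.0% with DMSO and 34.1% at 12 h, while its own level was higher there. The share of DNAJB6 went from 10.8% and 10.3% with DMSO to 4.58% at 12 h, with a higher level as well.

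**Figure D5:**
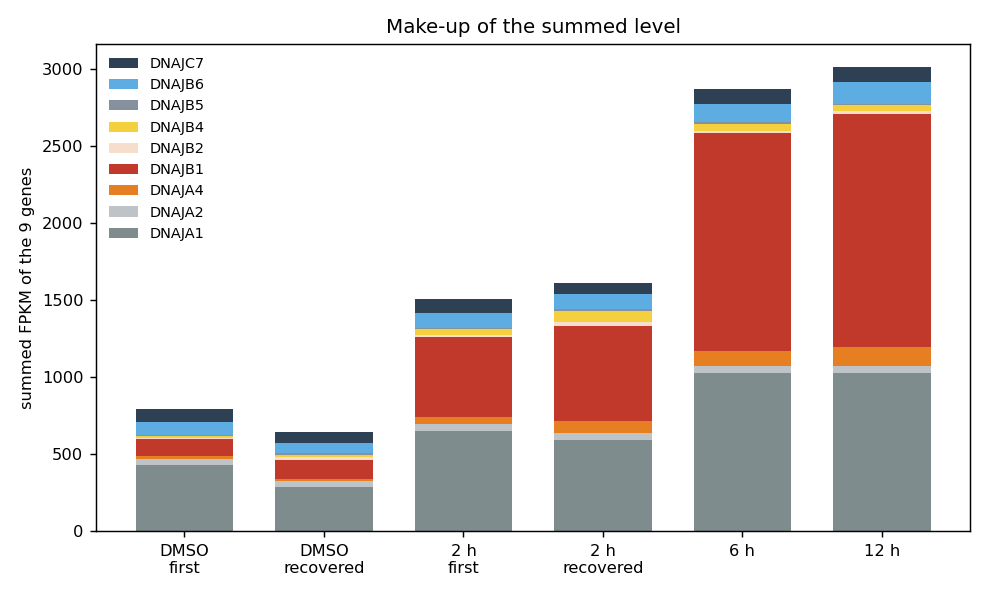
Summed FPKM of the 9 genes in each library, with each gene's part stacked. The sum is 798 and 647 FPKM with DMSO and 3015 FPKM at 12 h, and the parts of DNAJB1 (red) and DNAJA1 (grey, at the base) make up most of it in every library.

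HSP70, the partner that these cochaperones serve, was higher as well. Of 7 cytosolic HSP70 genes, 5 were over 2-fold above the mean of DMSO at 12 h (6.48% of all genes). limma called 0 of them at 2 h or over the order of time. At an unadjusted limma p under 0.05 in either direction there were 4 and 5, beside 378 and 2005 over all genes tested. HSPA8, the constitutive HSP70, was at 1431 and 967 FPKM with DMSO, 1773 and 1442 FPKM after 2 h, 2545 FPKM after 6 h and 2933 FPKM after 12 h, a log2 difference of 1.32 at 12 h. The highest of the list was HSPA6, a strictly stress-inducible HSP70, at 0.317 and 0.0965 FPKM with DMSO and 1030 FPKM at 12 h, and the lowest was HSPA2, with a log2 difference of 0.25. HSPA1A and HSPA1B are near-identical copies, so how reads were divided between them is uncertain. The summed FPKM of the 9 cochaperones per summed FPKM of the 7 HSP70 genes was 0.516 and 0.609 with DMSO, 0.58 and 0.643 after 2 h, 0.549 after 6 h and 0.462 after 12 h. The ratio at 2 h and 6 h thus overlapped that of DMSO or lay within its spread, and only the 12 h library was below both DMSO libraries.

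A further list held 11 nucleotide exchange factors and other HSP70 regulators, which release ADP or the client from HSP70 or pass the client on. At 12 h, 6 were over 2-fold above DMSO, beside 6.48% of all genes. None was over 2-fold lower, beside 3.76% of all genes, and 11 genes cannot show a difference from that share. The highest was BAG3, which couples HSP70 to autophagy, with a log2 difference of 3.70 at 12 h, and the lowest was STUB1, the ubiquitin ligase of chaperone clients, with -0.37. The median of the list was 1.08 at 12 h. limma called 0 of them at 2 h and over the order of time. In either direction, 2 and 6 had an unadjusted p under 0.05 by limma, beside 378 and 2005 over all genes tested. HSF1 was at 52.0 and 44.2 FPKM with DMSO, 45.4 and 39.2 FPKM after 2 h, 51.1 FPKM after 6 h and 45.2 FPKM after 12 h, so that at 6 h and 12 h it lay between the DMSO libraries. Among 4 heat shock factor genes, counting the binding protein HSBP1, the log2 difference at 12 h ran from -0.35 for HSF4 to 0.25 for HSBP1 and none was over 2-fold either way. limma called 0 of these 4 in either fit, and 0 had an unadjusted limma p under 0.05.

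The remaining J-domain genes were those of the ER, of the mitochondria and of other places in the cell including the cytosol. Each of these lists held 0 or 1 gene over 2-fold higher at 12 h. Over all genes, 6.48% were over 2-fold higher at 12 h and 3.76% over 2-fold lower. Lists this small cannot show a difference from those shares. Of 11 genes of the ER, 1 was over 2-fold higher at 12 h, DNAJB9, a target of the ER stress response that represses the sensor IRE1. Its level was 3.17 and 8.66 FPKM with DMSO, 12.0 and 21.1 FPKM after 2 h, 28.0 FPKM after 6 h and 28.7 FPKM after 12 h, a log2 difference of 2.43 at 12 h. The lowest of the ER list was DNAJC10, an ER reductase, with -0.68, and the list's median at 12 h was 0.09. Of 7 mitochondrial genes that passed the filter, of 8 listed, none was over 2-fold either way, from HSCB, which serves iron-sulfur cluster transfer, at 0.38 to DNAJC19, a part of the import motor, at -0.31. Of 15 other J-domain genes of the cytosol, nucleus and vesicles that passed, of 21 listed, 1 was over 2-fold higher at 12 h, DNAJC2, a ribosome-bound cochaperone, with a log2 difference of 1.10. The lowest of these was DNAJC12, known for binding aromatic amino acid hydroxylases, with -0.82, and its level was only 0.634 and 1.89 FPKM with DMSO. The medians at 12 h were -0.06 for the mitochondrial genes and 0.05 for the others, beside 0.87 for the 9 cochaperones. The 9 genes and the lists were chosen with earlier results of these data known, so this contrast is not independent of those results. limma called 0 genes of these 3 lists at 2 h and over the order of time. At an unadjusted limma p under 0.05 in either direction, the ER, mitochondrial and other genes numbered 0, 0 and 1 at 2 h. Over the order of time they numbered 5, 0 and 1. Over all genes tested, 378 at 2 h and 2005 over the order of time had such a p. These counts do not separate higher from lower genes.

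Among the members themselves, DNAJB1, DNAJA4, DNAJA1, DNAJB6 and DNAJA2 had like profiles over the 6 libraries. Their Pearson correlations of log2(FPKM + 0.1) ran from 0.89 to 0.968, while DNAJB5 had at most 0.319 with any of them and 0.734 with DNAJB4. These values describe 6 libraries that share 4 groups, and carry no test. Over the 4402 other genes with at least a 2-fold span, the profiles most like that of DNAJB1 were those of GADD45G (r = 0.999), IER5 (r = 0.999), C1orf52 (r = 0.997), EAF1 (r = 0.996) and BAMBI (r = 0.996), with n = 6 libraries. GADD45G was only at 0.161 and 0.180 FPKM with DMSO, near the added 0.1, so its profile rests in part on that constant. IER5, an immediate early gene, was at 9.98 and 13.2 FPKM with DMSO, 42.1 and 46.7 FPKM after 2 h, 87.1 FPKM after 6 h and 94.2 FPKM after 12 h. C1orf52 and EAF1 had a similar course at a smaller size, with log2 differences of 1.15 and 1.01 at 12 h.

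Some of these genes share sequence with others, and the library kit as described does not keep strand. In GENCODE annotation of GRCh38, exons of DNAJB1 overlapped those of TECR on the opposite strand over 211 bases, 5.75% of the exonic bases of DNAJB1. TECR was at 85.7 and 82.6 FPKM with DMSO and 107 FPKM at 12 h, a log2 difference of 0.35 beside 3.70 for DNAJB1. DNAJC7 overlapped CNP over 401 bases and NKIRAS2 over 484 bases, both on the opposite strand, with log2 differences at 12 h of -0.18 and 0.47. DNAJB4 shared 78 bases with GIPC2 on its own strand, and GIPC2 was at or below 0.311 FPKM. DNAJA4 overlapped the unnamed genes AC090607.3 and AC090607.4 on the opposite strand. Of the words of 50 bases, the read length, in the transcript of DNAJB6 examined, 19.1% also occurred in pseudogene-type entries, so reads from those words cannot be assigned to DNAJB6 alone. That share was 2.57% for DNAJB1, 1.5% for DNAJA1, 0.0507% for DNAJC7 and 0 for the others.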

How the data were processed

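RNA of OVCAR5 cells was sequenced as single 50-base reads from 6 libraries. Per the paper's methods and the submitters' processing notes, the authors trimmed reads with Trim Galore, aligned them with TopHat2 2.0.8, and estimated FPKM with Cufflinks and Cuffdiff 2.1.1. The methods name a mouse build, whereas the deposited column definitions name hg38 and the loci are human. The deposited FPKM columns were scaled in each comparison separately. The authors' columns of fold changes, p-values, q-values and significance calls were not used, except that the status column chose the testable genes in 1 alternative.

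Rows of 1 symbol were summed. The columns named for the second DMSO and 2 h libraries had a sharp lower limit at 0.526 and 0.509 of the first library of the group, where 810 and 958 rows lay, and 0 of 18195 and 18722 rows above 0 in the first library were at 0 there. They were therefore read as means, and the second library was recovered by subtraction, with remainders below 0.2% of the mean set to 0. The 6 h and 12 h values were rescaled to comparison 1 through the first DMSO library, which those comparisons also hold. An exact 0 can be a failed estimate.

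Values were tested as log2(FPKM + 0.1) with limma 3.58.1 (R 4.3.3) over the 13287 genes with a mean of at least 1 FPKM, with Benjamini-Hochberg adjustment and a threshold of 0.05. The fold change understates differences of low genes. The 2 h fit had 2 residual degrees of freedom and the order-of-time fit 4. A count test could not be used on FPKM. The limma fits were tried on simulated data with the same spread for all genes. That trial does not measure error or power at the spread of these data. Python 3.11.15 with pandas 2.3.3 was used for all else. Shared words were counted for the longest transcript of each gene with a consensus coding sequence in GENCODE.

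The text names all 9 members, the highest and lowest gene at 12 h of each other list, HSPA8, HSF1, the 5 genes most like DNAJB1, and genes that overlap a member. The members and lists were chosen with earlier results of these data known. Genes called by limma over the whole table, the markers, and examples beyond this were added after their values were seen. Alternatives were other pseudocounts (0.01 and 1), filters (none, and a mean of 5 FPKM), scalings, row handling, fits, and leaving out each DMSO and 2 h library; leaving out the 6 h or the 12 h library in the order-of-time fit was added after seeing the data. Protein sequences were not used here.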

Additional observations from a re-analysis of the deposited data

How the results depend on the processing

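Under all alternatives run, limma called 0 of the 9 genes at 2 h and over the order of time, and DNAJA1, DNAJA4, DNAJB1 and DNAJB4 kept their direction in every comparison. At 6 h 4 of the 9 were over 2-fold higher under every alternative, and at 12 h 4 to 5. Of the values of single members, 129 of 135 at 2 h, 149 of 153 over the order of time, and 89 of 90 at 6 h and at 12 h each kept their direction and stayed within the spread or on the same side of the threshold. The others changed sign near 0. With 0 members called under any limma alternative, only a change of sign could count against a value in those fits. At 6 h and 12 h, leaving out 1 DMSO library could not move a value beyond the spread between the DMSO libraries. There too only a change of sign could count, so these totals say little about how far the sizes held. DNAJC7 at 2 h was -0.0077 under median-ratio scaling and -0.0076 in the deposited means, and -0.12 to 0.20 with 1 library left out. DNAJB2 with 1 library left out was -0.25 to 0.67 at 2 h and -0.10 to 0.56 at 6 h. DNAJB5 was -0.18 to 0.039 at 12 h with 1 DMSO library left out, and its slope was 0.0047 under upper-quartile scaling, 0.011 over log2(hours + 1) and between -0.070 and 0.15 with 1 library left out (0.0013 without SpiD7 2 h replicate 2 and 0.15 without the 12 h library).

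The 3 genes called at 2 h became 0 without a filter, 6 with only testable genes or a pseudocount of 0.01, 1 with a pseudocount of 1 or upper-quartile scaling, 5 with an intensity trend and 0 to 21 with 1 library left out. The members with an unadjusted limma p under 0.05 at 2 h numbered 1 to 3 with 1 library left out. The 2 genes called over the order of time became 1 under median-ratio scaling, 4 without a filter or with a pseudocount of 1, 5 over log2(hours + 1), 0 over hours and 0 with any 1 of the 6 libraries left out. Genes over 2-fold from DMSO numbered 1164 at 6 h and 1360 at 12 h. These were 771 and 869 with a pseudocount of 1, 2948 and 3395 without a filter, and 572 and 682 at a mean of 5 FPKM. With 1 DMSO library left out they were 966 to 2063 at 6 h and 1627 to 1937 at 12 h, the 2063 without DMSO replicate 1. Genes with all SpiD7 libraries above DMSO numbered 2717 to 3194 with 1 DMSO library left out, against 1186, since fewer controls bound the comparison. The cause of the other shifts was not tested. No scaling moved the median of all genes by more than 0.1.

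Replicate numbers are shared by DMSO and 2 h, and the labels do not say whether same-numbered libraries were handled together. With 2 pairs, the correlation of same-numbered deviations from the group means was 0.369. Both second libraries were recovered by subtraction, and both were above the first for PECAM1 and for the share of MIR6723. Among the 9 members, the second library differed from the first in the same direction in both groups, except for DNAJA4 and DNAJB6. The source of this likeness was not tested. With a replicate block, limma called 0 genes at 2 h in place of 3, and 6 of the 9 members in place of 4 had an unadjusted limma p under 0.05. Over all genes tested, that number was 1874 in place of 378, so the unadjusted counts at 2 h rest on whether the libraries are paired. The reads behind each FPKM are not known, and 2 recovered libraries and 1 library at each later time limit every comparison.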
